A study of Homo sapiens with 9 samples.

Results

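Alternative first exon events are pairs of transcription starts within a gene, each with its own first exon, that are joined to the same splice acceptor. The events described here are the 510 of this class among the 1456 splicing events that the study listed for knockdown of DHX34 or UPF1 in K562 cells, which is 35.0% of the list. They were selected on these same 9 libraries, because an event entered the list by its difference between a knockdown and the control, so the shifts below are descriptions and carry no test. The DHX34 list held 278 of them and the UPF1 list 345, with 165 listed for DHX34 alone, 232 for UPF1 alone and 113 for both.

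K562 is a human chronic myeloid leukaemia line with erythroid features, which the labels spell K562 in the titles and K652 elsewhere. The 9 poly(A)-enriched libraries were made on day 4 after the first siRNA transfection. Per the methods, the same siRNAs were transfected again on day 3. The libraries formed 3 groups of 3 biological replicates, a non-targeting siRNA pool (SCR) and siRNAs directed at DHX34 or at UPF1. All groups share the cell line, the medium and the transfection, and a knockdown leaves part of the targeted RNA. DHX34 was at 73.6 ± 1.15 CPM, counts scaled to a common library total, in SCR and 31.4 ± 2.26 CPM in its knockdown, and UPF1 at 261 ± 8.31 and 106 ± 1.58 CPM (SD, n = 3). Library totals ran from 73478797 to 103625443 expected counts, all 9 of 9 erythroid markers had a median of at least 1 TPM, and 2 of 8 markers of other cell types did, EPCAM (median 71.9 TPM) among them, while CD8A, MS4A1 and KRT5 were at 0. In bulk RNA of this kind, fewer cells with a transcript and less of it per cell cannot be told apart.

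UPF1 is the central helicase of nonsense-mediated decay (NMD), by which cells destroy mRNAs with premature stop codons, and DHX34 is a helicase that acts in the same pathway and has also been linked to pre-mRNA splicing. A different start can change the 5′ untranslated region, the start codon or the exons that follow, and so change the protein or make the RNA a target of NMD. Steady-state RNA reports the product of start choice, splicing and decay together, and these cannot be told apart in a share.

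The measure used throughout is the upstream share, the TPM of the transcripts that begin at the 5′-most of the 2 starts as a percentage of the TPM of both forms. TPM is a transcript's abundance corrected for length and scaled to the same total in each library. A shift is the difference between group means of this share in percentage points, positive where the upstream start was favoured. A form was taken as the annotated transcripts whose first exon has exactly the start and the splice donor of the event. Such transcripts existed for both forms in 357 events of 188 genes. For 130 further events only transcripts with the same first intron but another start were found, and for 23 no match was made, so these 153 have no upstream share of this kind here. As a background, the same share was computed for all 26892 annotated first exon pairs of 5011 genes whose forms together averaged at least 1 TPM.

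First exons differ in the sequence at which they are joined to the common acceptor. The splice donors of 6 events described below are shown here because they separate the first introns of an event in a read. They do not separate transcripts that share a first intron but differ in start. The 9 last bases of the first exon are in capitals and the first 21 bases of the intron in lower case (hg38, 5′ to 3′ on the gene's strand).
PRAME upstream, chr22:22559154-22559183, minus strand: TGTCAACAGgtctgtattggcgacaaaagg
PRAME downstream, chr22:22558950-22558979, minus strand: CTCCAGAGAgtaagttaattgaatcccggg
HNRNPH3 upstream, chr10:68331846-68331875, plus strand: AGAAAAACGgtgcgcgctgcagctctttaa
HNRNPH3 downstream, chr10:68332208-68332237, plus strand: CCTGACAGGgtatctgaagtaaaagggggt
RBM39 upstream, chr20:35741920-35741949, minus strand: CCGGAACAGgtacggggcgttgcggacccg
RBM39 downstream, chr20:35741467-35741496, minus strand: GTGTTTCGTgtaagaggcgttttggattta
BCAT1 upstream, chr12:24948906-24948935, minus strand: ACAATGAAGgtaactacttatggttttgtc
BCAT1 downstream, chr12:24902926-24902955, minus strand: GCCCGCCAGgtacctcgaacccgggcgttt
TUG1 upstream, chr22:30969378-30969407, plus strand: CCGGGTCTGgtagggcgaaggaacgggcgt
TUG1 downstream, chr22:30971771-30971800, plus strand: TGAATTATGgtacttgccattttccaaaat
TGFBR1 upstream, chr9:99105294-99105323, plus strand: GGGCGACGGgtgagcggcggcgcggcgggc
TGFBR1 downstream, chr9:99127994-99128023, plus strand: GCAATTCTGgtaagcagtatgtgttttgga
Over all 590 first donors of the 510 events, 570 read GT (96.6%) and 19 GC (3.22%) at the intron's start, which places the event coordinates on hg38.

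The sequence just before each start is a further feature of an event. The 80 bases before both starts of 3 events are shown for comparison, with letters of a searched motif in capitals.
SMARCE1 upstream, chr17:40647642-40647721, minus strand: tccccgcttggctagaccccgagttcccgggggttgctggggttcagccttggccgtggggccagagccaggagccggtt
SMARCE1 downstream, chr17:40647348-40647427, minus strand: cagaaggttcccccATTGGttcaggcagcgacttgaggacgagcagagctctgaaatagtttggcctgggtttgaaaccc
MARCHF6 upstream, chr5:10353888-10353967, plus strand: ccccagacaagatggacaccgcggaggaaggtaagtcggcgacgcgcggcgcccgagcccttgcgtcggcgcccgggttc
MARCHF6 downstream, chr5:10354559-10354638, plus strand: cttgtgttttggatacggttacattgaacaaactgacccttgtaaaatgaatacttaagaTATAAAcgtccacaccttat
H3-3B upstream, chr17:75785487-75785566, minus strand: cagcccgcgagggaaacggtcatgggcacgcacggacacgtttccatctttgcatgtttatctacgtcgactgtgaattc
H3-3B downstream, chr17:75779781-75779860, minus strand: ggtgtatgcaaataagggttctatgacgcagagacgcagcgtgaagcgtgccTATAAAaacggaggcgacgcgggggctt
The window before the upstream MARCHF6 start overlaps the end of another MARCHF6 first exon, at 10353917, and holds 11 bases of annotated untranslated region. The motifs searched on both strands were TATAAA for the TATA box, CCAAT for the box of that name and GGGCGG for the GC box, and no motif contains another. In windows from 250 bases before to 50 after a start, which overlap within an event where its starts are close, TATAAA was found in 6.40% of 422 upstream and 9.54% of 346 downstream starts of the listed events, against 6.03% and 7.35% of the background starts and 11.5% of 35116 RefSeq promoters (GRCh38.p14) of the same length. CCAAT was found in 37% and 31.8% of upstream and downstream starts (background 34.7% and 29.7%, RefSeq 34.6%) and GGGCGG in 65.2% and 58.4% (background 65.9% and 57.9%, RefSeq 45%). A ratio of observed to expected CpG of at least 0.6 was present in 77.3% of upstream and 67.1% of downstream starts, and in 78.0% and 64.0% of the background. The listed starts therefore lay within a few percentage points of all annotated first exon pairs in each of these features.

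The 510 events fell in 258 genes, of which 240 were protein coding and 13 were long noncoding RNAs. A single event was listed for 158 genes. By contrast, 22 genes with 5 or more events held 158 of the events (31.0%), led by SMARCE1, a subunit of the SWI/SNF chromatin remodelling complex, with 14. AKT2, a kinase of insulin and growth factor signalling, had 12, the splicing factor HNRNPL 11, and the clathrin adaptor subunit AP2B1 10. Many events of a gene repeat the same RNA. Among the 357 events with exact forms, 237 (66.4%) shared a form with another listed event, and the 510 events held 352 distinct pairs of first introns. In SMARCE1, 9 of 13 exact events shared 1 downstream form, which starts at 40647347 on chromosome 17, and this form was at 0, 2.79 and 0 TPM in the SCR libraries, at 8.55, 5.04 and 3.67 TPM upon DHX34 knockdown and at 5.02, 9.17 and 8.0 TPM upon UPF1 knockdown. The listed events of a gene are thus not independent observations.

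The starts of a pair were close together. Their distance had a median of 657.5 bases over the 510 events, from 31 to 250864, with 24.7% within 300 bases and 62.4% within 1000. For the 357 events with exact forms the median was 587 bases, against 824 in the background, and 29.7% against 19.2% lay within 300 bases. With 1 event per gene, the medians were 648.5 bases (188 genes) and 819 bases (5011 genes). Only 11.5% of the exact events had starts over 10000 bases apart (background 17.3%). The widest was HBG2, a fetal globin of the erythroid lineage, with starts at 5505605 and 5254741 on chromosome 11.

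**Figure D1:**
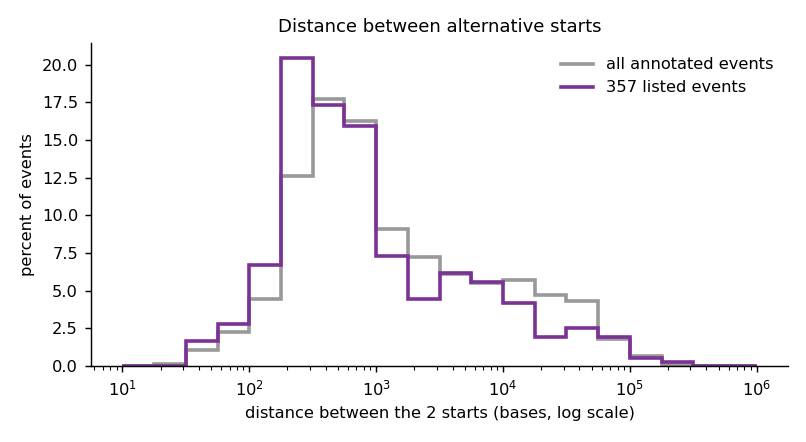
Distribution of the distance between the 2 starts (bases, log scale) as the percent of events in each interval, for the 357 listed events with exact forms and all annotated events, of which 1 lies outside the axis. The listed events (median 587 bases) are most frequent at distances under 1000 bases and hold fewer pairs over 10000 bases than the background (median 824 bases).

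The forms of a pair seldom differed in the first exon alone. In 89 of the 357 events (24.9%) the leading transcripts of both forms had identical introns after the shared acceptor (background 20.2%). In 117 (32.8%) one annotated model stopped earlier than the other (background 39%), and in 151 (42.3%) later exons differed (background 40.8%). Each form was a single annotated transcript in 312 events (87.4%, background 85.1%). The leading transcripts of both forms used the same start codon in 117 events (32.8%) and different ones in 90 (25.2%). In the other 150, at least one leading transcript had no annotated coding sequence. A different start codon was annotated in 13.2% of events with starts up to 300 bases apart and in 41.5% of those over 10000 bases apart. The forms were mostly a small part of their gene, with a median of 14.4% of the gene's TPM (background 18.5%) and under 10% in 145 events (40.6%).

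The upstream share varied widely among replicates. Its SD over 3 libraries had a median of 5.71 points in SCR, 5.23 upon DHX34 knockdown and 4.5 upon UPF1 knockdown, where the background had 1.5, 1.63 and 1.63. An SD above 20 points was found in 93 events in SCR (26.1%, background 6.83%), 57 upon DHX34 knockdown (16.3%, background 5.86%) and 43 upon UPF1 knockdown (12.1%, background 5.31%). A single library stood more than 50 points from both others of its group in 70 events in SCR (19.6%), 41 upon DHX34 knockdown (11.5%) and 17 upon UPF1 knockdown (4.76%). Those in SCR were spread over its libraries, with 32 in the first, 20 in the second and 18 in the third. In the background each SCR library stood apart in this way in 0.885% to 1.16% of events. The DHX34 libraries did so in 0.777% to 0.9% and the UPF1 libraries in 0.632% to 0.978%. The spread went with depth. The events were split into 3 classes of 119 by expected counts, which covers depth only as far as these estimates go. Among the events with the fewest counts (median 156 for both forms) the median SD in SCR was 19.2 points, in the middle class (813) it was 5.36 and in the deepest class (5828) it was 2.93. The size of the shifts went the same way, with a median absolute shift for the DHX34 knockdown of 33.4, 15.7 and 10.3 points in these classes and of 36.2, 22.0 and 10.1 for the UPF1 knockdown. The part of depth in the shifts was not tested.

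**Figure D2:**
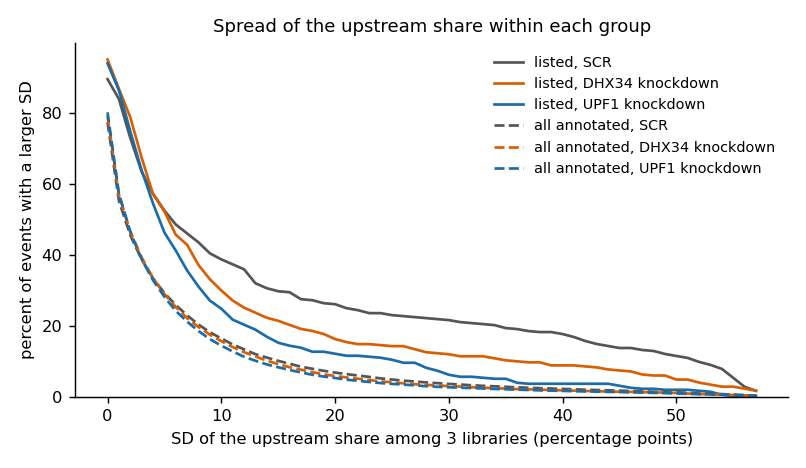
Percent of events (y axis) whose SD of the upstream share among the 3 libraries of a group exceeds the value on the x axis (percentage points), for listed events (solid lines) and all annotated events (dashed lines) in SCR, DHX34 knockdown and UPF1 knockdown. At 20 points the solid line of SCR is at 26.1% and that of the UPF1 knockdown at 12.1%, and all solid lines there lie above the dashed ones.

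Among the 5 events of at least 5 TPM with the widest SCR spread, libraries of the control disagreed on which form was present at all. In H3-3B, which encodes the replacement histone H3.3, the upstream form starting at 75785486 on chromosome 17 was at 36.8, 195 and 0 TPM in SCR, at 4.01, 0 and 3.23 TPM upon DHX34 knockdown, and at 232, 295 and 238 TPM upon UPF1 knockdown. The UPF1 libraries were higher than all others, while SCR and DHX34 knockdown overlapped. In HNRNPH1, a splicing regulator that binds G-rich RNA, a pair of downstream first exons with the same start (179623698, chromosome 5) but different donors alternated between libraries. The exon with the donor at 179623636 was at 6.89, 9.91 and 0 TPM in SCR, at 0 in all 3 DHX34 libraries and at 18.8, 17.2 and 28.2 TPM upon UPF1 knockdown. The exon with the donor at 179623595 was at 0, 0 and 11.1 TPM in SCR, at 7.50, 4.88 and 12.1 TPM upon DHX34 knockdown and at 0 in all 3 UPF1 libraries. The third SCR library thus had the pattern of the DHX34 knockdown and the other SCR libraries that of the UPF1 knockdown. RPS6KB1, the S6 kinase, had shares of 0%, 100% and 0% in SCR from a mean of 75 expected counts. In MARCHF6, an E3 ubiquitin ligase of the endoplasmic reticulum, the event starting at 10353711 and 10353968 had shares of 100%, 0% and 0.961% in SCR, and a pair of NONO starts at 71283676 and 71284194 on chromosome X 100%, 0% and 100%.

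In the DHX34 list, 196 events had exact forms, and the median absolute shift between DHX34 knockdown and SCR was 27.1 points (background 1.29). The upstream share was higher in the knockdown in 91 events and lower in 105. The libraries of the groups did not overlap, with a shift of at least 5 points, in 116 of the 196 (background 5.53% of events), 53 towards the upstream start (background 2.47%) and 63 towards the downstream start (background 3.06%). Since the list was chosen on this contrast, nothing is read from the excess over the background. In 43 of the 196 events the shift was smaller than the larger SD of the groups. In 3 it was under 5 points. Under limma on the log2 ratio of the forms over all 26892 events, at an adjusted p of at most 0.05 and a shift of at least 5 points, 0.0855% of the background was called, and 14 of the called events were listed ones, in 7 genes.

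PRAME, a tumour antigen that represses retinoic acid receptor signalling, had the largest shift. Its starts at 22559361 and 22559083 on chromosome 22 lie 278 bases apart. The upstream share was 100% in all 3 SCR libraries, 0%, 0.832% and 0.165% upon DHX34 knockdown and 7.99%, 1.26% and 0% upon UPF1 knockdown. The groups did not overlap and the shifts were −99.7 and −96.9 points. The upstream form was low throughout, at 0.306, 0.516 and 0.251 TPM in SCR. The downstream form was listed at 0 TPM in each SCR library and at 47.4, 65.1 and 54.2 TPM upon DHX34 knockdown. Both forms made up 2.56% of the gene's TPM, and the gene total was 1828 ± 44.9 CPM in SCR and 1724 ± 5.80 upon DHX34 knockdown (SD, n = 3). When all transcripts with the same first introns were counted, whatever their start, the shift for DHX34 was 2.43 points, with the opposite sign.

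TUG1, a long noncoding RNA with roles in chromatin regulation, kept its shift when only first introns were used, because each form is the only transcript with that intron. Its starts are 30969278 and 30969959 on chromosome 22. The upstream share was 81.5%, 52.9% and 68.3% in SCR, 0% in all DHX34 libraries and 29.0%, 0% and 8.67% upon UPF1 knockdown, so that both knockdowns lay below SCR. The upstream form was at 5.99, 3.25 and 4.55 TPM in SCR and at 0 TPM in each DHX34 library, while the downstream form was at 1.36, 2.89 and 2.11 TPM against 4.57, 4.52 and 5.58 TPM. MARCHF6 had the shift of 72.6 points of its event at 10353968 and 10354639 on both definitions too. Its upstream share was 0%, 8.99% and 60.7% in SCR, 100%, 87.5% and 100% upon DHX34 knockdown and 0% in all UPF1 libraries. The third SCR library alone held much of the upstream form in the control.

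BCAT1, the cytosolic enzyme that transaminates branched-chain amino acids, has starts 45968 bases apart (24949043 and 24903075, chromosome 12) that lead to different start codons. Its upstream share was 100% in every SCR library and 40.6%, 27.5% and 38% upon DHX34 knockdown, a shift of −64.6 points. The UPF1 libraries, at 100%, 33.1% and 60.7%, overlapped SCR. The upstream form was at 2.57 to 2.89 TPM in SCR and 2.82 to 3.59 TPM upon DHX34 knockdown, and the downstream form at 0 and at 4.12 to 7.77 TPM, so the groups differed in the downstream form. By first introns the shift was −14.8 points.

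The other events with the largest shifts in the DHX34 list were in NONO, EEF1D, AP2B1 and AKT2. NONO, a paraspeckle protein that binds RNA and DNA, had shares of 100%, 45.1% and 100% in SCR for its starts at 71283590 and 71284194, 10.2%, 4.76% and 2.52% upon DHX34 knockdown and 7.95%, 24.7% and 0% upon UPF1 knockdown. EEF1D, the guanine nucleotide exchange subunit of elongation factor 1, had 82.6%, 79.4% and 63.2% in SCR, 0% in all DHX34 libraries, and 61.8%, 60.5% and 0% upon UPF1 knockdown. AP2B1 had 15.7%, 39.3% and 0% in SCR and 65.1%, 100% and 100% upon DHX34 knockdown, and the UPF1 libraries from 57.0% to 66.0%. AKT2 had 91.8%, 69.2% and 91.4% in SCR and 67.2%, 0% and 0% upon DHX34 knockdown, so that the first knockdown library lay close below the lowest SCR library and the others were far apart from it. By first introns the shifts were −7.63 points in NONO, −3.39 in EEF1D, 1.15 in AP2B1 and −58.4 in AKT2.

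**Figure D3:**
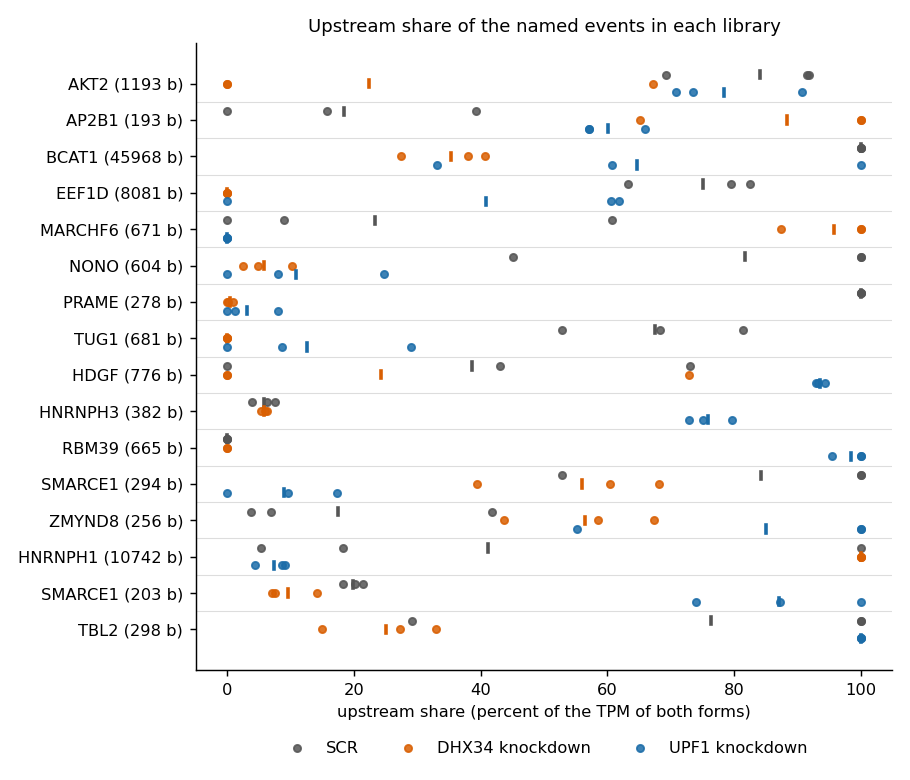
Upstream share (percent of the TPM of both forms, x axis) in each of the 3 SCR, 3 DHX34 knockdown and 3 UPF1 knockdown libraries for the named events, 1 row per event with the distance between its starts in bases (b); dots are libraries and vertical bars group means (none where a library had no TPM in either form). PRAME goes from 100% in SCR to under 10% in both knockdowns, HNRNPH3 and RBM39 are high upon UPF1 knockdown only, and the SCR dots of HNRNPH1, NONO, HDGF and TBL2 lie far apart.

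In the UPF1 list, 239 events with exact forms had a share in all SCR and UPF1 libraries, with a median absolute shift of 28.1 points (background 1.43). The groups did not overlap, with a shift of at least 5 points, in 178 (background 7.57%), 89 in each direction (background 3.73% towards the upstream and 3.84% towards the downstream start). In 36 events the shift was smaller than the larger SD. Limma called 0.773% of the background and 55 events of the UPF1 list, in 33 genes. Since this list was chosen on the same contrast, nothing is read from these excesses over the background.

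HNRNPH3, a relative of HNRNPH1 that also takes part in splicing, combined a large shift with a small spread. Its starts at 68331721 and 68332103 on chromosome 10 lie 382 bases apart and both lead to transcripts with no annotated coding sequence. The upstream share was 6.22%, 7.51% and 3.8% in SCR, 6.27%, 5.85% and 5.36% upon DHX34 knockdown and 79.6%, 72.8% and 75.1% upon UPF1 knockdown. The UPF1 libraries stood apart from both other groups, which overlapped, and the shift was 70.0 points for UPF1 and −0.0203 for DHX34. The forms exchanged, since the upstream form was at 1.07 to 2.16 TPM in SCR and 12.6 to 15.8 TPM upon UPF1 knockdown, and the downstream form at 22.2 to 27.0 and 3.44 to 5.89 TPM. Both made up 8.75% of the gene's TPM, and by first introns the UPF1 shift was 6.51 points.

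RBM39, a splicing coactivator related to U2AF, had an upstream form annotated as an NMD target, with starts at 35742274 and 35741609 on chromosome 20. This form was at 0 TPM in all 3 SCR and all 3 DHX34 libraries and at 15.1, 14.5 and 15.7 TPM upon UPF1 knockdown. The downstream form was at most 3.63 TPM in any library, so the shift of 98.5 points for UPF1 rests on the upstream form, and the DHX34 knockdown has no mean because neither form was present in its first library. RBM39 as a whole was at 194 ± 4.72 CPM in SCR and 241 ± 3.43 upon UPF1 knockdown (SD, n = 3). By first introns the UPF1 shift was 0.67 points.

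SMARCE1 had one of the largest UPF1 shifts and one of the largest differences between the knockdowns. For the starts at 40647641 and 40647347 on chromosome 17 the upstream share was 100%, 52.8% and 100% in SCR, 39.5%, 60.5% and 68.1% upon DHX34 knockdown and 9.52%, 0% and 17.4% upon UPF1 knockdown, with the UPF1 libraries below all others and the same shift of −75.3 points by first introns. For the starts at 40647844, whose form is an annotated NMD target, and 40647641 it was 21.4%, 18.2% and 20.1% in SCR, 14.2%, 7.07% and 7.53% upon DHX34 knockdown and 87.3%, 100% and 73.9% upon UPF1 knockdown. Here the DHX34 libraries lay below SCR and the UPF1 libraries above it, with a UPF1 shift of 67.2 points that was 9.09 by first introns. The form common to these events, starting at 40647641, was at 2.99 to 3.92 TPM in SCR, 5.57 to 7.84 upon DHX34 knockdown and 0 to 1.68 upon UPF1 knockdown.

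ZMYND8, a reader of histone marks, and HDGF, a chromatin-binding growth factor, had the remaining large UPF1 shifts. ZMYND8 had shares of 6.81%, 41.8% and 3.79% in SCR, 58.5%, 43.7% and 67.4% upon DHX34 knockdown and 55.1%, 100% and 100% upon UPF1 knockdown, so that both knockdowns lay above SCR. HDGF had 43%, 73.0% and 0% in SCR and 93.3%, 93% and 94.4% upon UPF1 knockdown, where the upstream form was at 12.6 to 17.8 TPM against 0 to 3.23 TPM in SCR. By first introns the UPF1 shifts were 13.1 points in ZMYND8, against 67.6, and 3.93 in HDGF, against 54.9. VDAC2, a porin of the outer mitochondrial membrane, was singled out after its values were seen, for its small spread. For the starts at 75210645 and 75210856 on chromosome 10, its upstream share was 83.4% ± 1.97 in SCR, 81.6% ± 2.19 upon DHX34 knockdown and 41.2% ± 0.676 upon UPF1 knockdown (SD, n = 3). The upstream form was alike in all groups (8.64 to 14.3 TPM) and the downstream form was at 2.28 to 2.41 TPM in SCR against 14.4 to 16.9 TPM upon UPF1 knockdown, and by first introns the UPF1 shift was −0.49 points.

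In most of these events only one form was higher, and few were exchanges. Among the 116 non-overlapping events of the DHX34 list, only 1 form differed by at least 1.5-fold between groups and was higher in the knockdown in 68, only 1 form differed and was lower in 23, and the forms exchanged in 15 (12.9%). For the 178 of the UPF1 list these counts were 114, 19 and 24 (13.5%). A form was at 0 TPM in all 3 libraries of one group and above 0 in all 3 of the other in 17 of the 116 (14.7%) and 30 of the 178 (16.9%). No such counts were made over all annotated events, and these events were chosen for their shifts. The counts therefore describe the selected events and are not read as a trait of them.

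The shifts were smaller when read at the first intron. Counting every transcript with the same first donor and acceptor, 76 of the 116 events (65.5%) still did not overlap with at least 5 points for DHX34, and 96 of the 178 (53.9%) for UPF1. The sign was the same in 105 and 167 of them. The median absolute shift in these events was 24.4 points by whole first exons and 9.95 by first introns for DHX34, and 27.4 and 6.43 for UPF1. In 8 and 37 events the first-intron shift was under 1 point. The gap was not confined to close starts. Over all events with exact forms, the median absolute shift for UPF1 up to 300 bases was 24.4 points by whole first exons and 3.76 by first introns. It was 17.0 and 8.05 points at 1000 to 10000 bases, and 32.9 and 12.9 over 10000 bases. For DHX34 these medians were 14.8 and 2.85, 12.9 and 8.25, and 22.8 and 7.29 points. A read across the first intron does not separate forms that share it, and how the quantification divided such reads between transcripts was not tested.

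**Figure D4:**
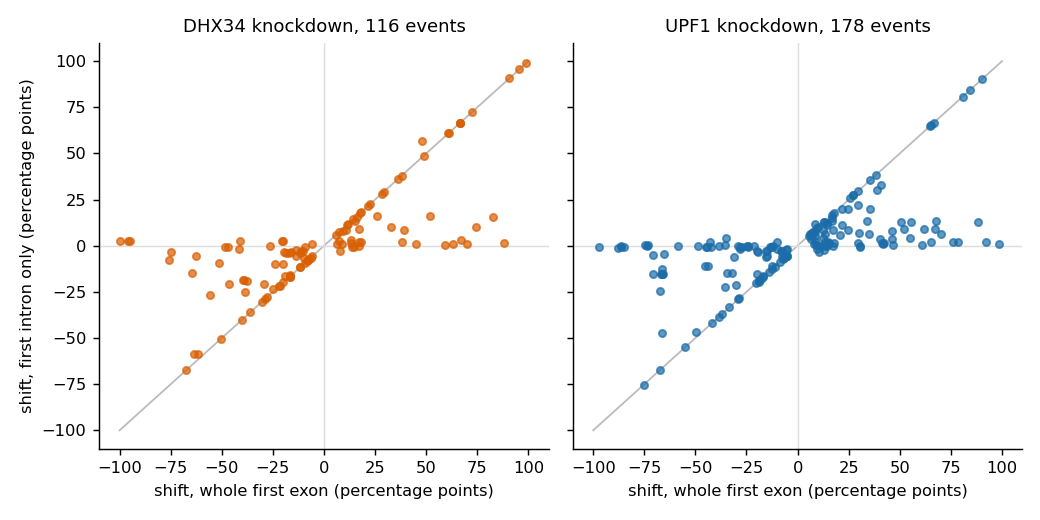
Shift of the upstream share between knockdown and SCR (percentage points) by whole first exons (x axis) and by first introns alone (y axis), for the non-overlapping events of the DHX34 list (116, left) and the UPF1 list (178, right); each dot is an event and the grey line marks equal shifts. Many dots lie near 0 on the y axis at large values on the x axis, as for PRAME at −99.7 and 2.43 points.

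Both knockdowns were compared with the same 3 SCR libraries, so their shifts are not independent and are given side by side. For the 79 exact events listed for both, the median absolute shift was 23.6 points for DHX34 and 24.0 for UPF1. TGFBR1, the type I receptor of TGF-β, is an example with different start codons (starts 99105111 and 99127916, chromosome 9). Its upstream share was 100% in every SCR library, 60.4%, 64.8% and 56.5% upon DHX34 knockdown and 71.0%, 62.0% and 63.2% upon UPF1 knockdown. The downstream form was at 0 TPM in SCR, 3.39 to 4.39 TPM in the DHX34 and 2.77 to 4.12 TPM upon UPF1 knockdown, while the upstream form was at 3.85 to 5.27 TPM in SCR and at 5.69 to 7.09 TPM in the knockdowns. By first introns the shifts were −18.3 and −14.6 points.

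Set directly against each other, the knockdowns did not overlap, with at least 5 points, in 135 of 347 listed events with a share in all their libraries (background 6.96%), 81 with the higher upstream share upon UPF1 knockdown (background 3.73%) and 54 upon DHX34 knockdown (background 3.22%). Limma called 0.513% of the background and 36 listed events in 16 genes. The listed events were chosen on shifts that involve these libraries, so nothing is read from these excesses over the background. The largest differences of UPF1 minus DHX34 knockdown were −95.8 points in MARCHF6, −92.6 in HNRNPH1, 77.5 in SMARCE1, 75 in TBL2 and 70.0 in HNRNPH3. By first introns they were −95.8 in MARCHF6, 0.29 with the sign turned in HNRNPH1, 21 in SMARCE1, 13.2 in TBL2 and 6.48 in HNRNPH3. In TBL2, a WD-repeat protein of the endoplasmic reticulum, the downstream form (start 73578336, chromosome 7) was at 0, 4.37 and 0 TPM in SCR, 4.65, 9.06 and 6.82 TPM upon DHX34 knockdown and 0 in all UPF1 libraries. Of the 79 events listed for both, 13 did not overlap between the knockdowns with at least 5 points, and the median absolute difference over the 79 was 2.86 points.

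In 6 of 347 events (1.73%), with CCNDBP1, HNRNPL, SELENOS and SMARCE1 among the genes, both knockdowns were apart from SCR by at least 5 points in opposite directions. Over all annotated events with a share in every library this was 39 of 25803 (0.151%), and nothing is read from the excess because the events were chosen for their shifts. In CCNDBP1, a binding partner of cyclin D, the upstream share of the starts at 43185409 and 43185940 on chromosome 15 was 18.3%, 12.0% and 14.2% in SCR, 9.87%, 11.4% and 6.34% upon DHX34 knockdown and 55.1%, 48.0% and 64.2% upon UPF1 knockdown. In SELENOS, a selenoprotein of endoplasmic reticulum quality control, it was 81.5% to 84.6% in SCR, 87.5% to 100% upon DHX34 knockdown and 67.0% to 71.4% upon UPF1 knockdown. HNRNPL, listed for UPF1 at the starts 38852347 and 38849368 on chromosome 19, had 22.3% ± 2.88 in SCR, 14.8% ± 4.03 in the DHX34 and 35.0% ± 2.51 upon UPF1 knockdown (SD, n = 3). By first introns its shifts had the same direction, −4.18 points for DHX34 and −2.39 for UPF1, so the opposite directions were not seen there. In CCNDBP1 they were −13.8 and 33.1 points and in SELENOS 3.08 and −4.07.

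One form was annotated as an NMD target and the other was not in 57 of the 357 events (16.0%, background 11.8%), the upstream form in 42 and the downstream form in 15. In most of these events the leading transcripts also differed in later exons, or one model stopped earlier. A shift of the NMD form there is not a change of start alone. The shares of the NMD forms leaned in different directions in the knockdowns, a contrast that was not tested. Of 56 with a value, the share of the NMD form was higher upon UPF1 knockdown than in SCR in 39 and lower in 17, with a median shift of 10.1 points. In the DHX34 knockdown it was higher in 19 and lower in 35, with a median of −3.28 points. Among all annotated events with such a form, 1667 of 3054 (54.6%) were higher upon UPF1 knockdown and 1057 lower, with a median of 0.29 points. Upon DHX34 knockdown 1279 of 3023 (42.3%) were higher and 1375 lower, with a median of 0 points. The others were unchanged. Within the UPF1 list 33 of 42 were higher in that knockdown (median 17.0 points), and within the DHX34 list 9 of 24 were higher in that one (median −16.8 points). These events were chosen for the same shifts, so the counts are a description.

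**Figure D5:**
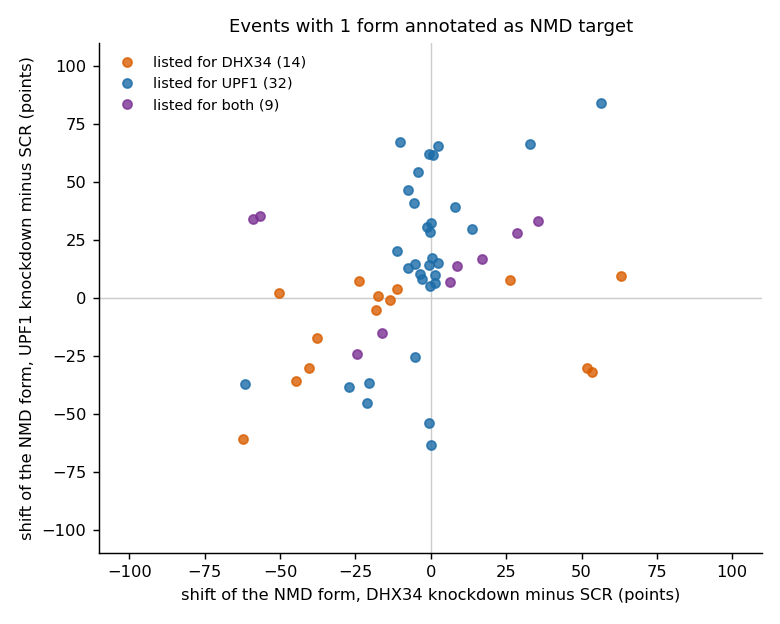
Shift in the share of the NMD-annotated form against SCR upon DHX34 knockdown (x axis) and the UPF1 knockdown (y axis), in percentage points, for the 55 events with a value in both, coloured by the list they come from. Most dots of the UPF1 list (32 events) lie above 0 on the y axis and near 0 on the x axis, and dots of the DHX34 list (14 events) lie mostly at or below 0 on the x axis.

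The following NMD forms, which differed widely in level, were chosen after their values were seen. SRSF3, a splicing factor whose own mRNA is a known NMD target, had an upstream NMD form (starts 36594391 and 36594592, chromosome 6) at 51.0, 45.8 and 45.1 TPM in SCR, 55.1, 50 and 52.8 TPM upon DHX34 knockdown and 81.8, 85.8 and 89.3 TPM upon UPF1 knockdown. Its coding form lay between 215 and 239 TPM in all libraries, and the upstream share was 17.2% ± 1.76, 18.4% ± 0.833 and 26.9% ± 0.907 (SD, n = 3). ODC1, the first enzyme of polyamine synthesis, was on both lists, with an NMD form at 14.8 to 18.0 TPM in SCR, 23.4 to 31.6 TPM in the DHX34 and 41 to 45.2 TPM upon UPF1 knockdown, and shares of 13.4% ± 0.94, 22.0% ± 3.97 and 27.0% ± 2.53. RPS15A, a ribosomal protein, had an upstream NMD form (start 18790334, chromosome 16) at 2.01 to 2.76 TPM in SCR, 1.99 to 2.82 TPM in the DHX34 and 5.0 to 6.30 TPM upon UPF1 knockdown. RACK1, a scaffold of the small ribosomal subunit, was on the DHX34 list, and its downstream NMD form (start 181243889, chromosome 5) was at 210 to 238 TPM in SCR, 155 to 171 TPM upon DHX34 and 190 to 240 TPM upon UPF1 knockdown. In each of these events the leading transcripts of the forms also differed in later exons. Read by first introns, the UPF1 shifts were 0.46 points for SRSF3, 0.076 for ODC1 and 0.050 for RPS15A.

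The listed genes were grouped by lists of function. Over all genes, 258 had a listed event, and 5011 had an annotated pair of first exons in the background. The lists were chosen with earlier results of these data known, so nothing is read from the number of genes in each. Of 94 splicing factors and hnRNPs, 10 had a listed event (40 events), and 27 of these events, in 9 genes, had exact forms of at least 5 TPM. Their groups did not overlap SCR in 7 for the DHX34 and 17 for the UPF1 knockdown, with median absolute shifts of 14.1 and 13.2 points. For comparison, the groups did not overlap in 5.53% and 7.57% of all annotated events and in 39.4% and 55.8% of all listed events with a value, and the counts of this list and of those below are descriptions. Of 128 ribosomal proteins and translation factors, 16 genes had 31 events. Of the 23 with exact forms of at least 5 TPM, in 13 genes, 8 and 14 did not overlap (all listed events 39.4% and 55.8%, background 5.53% and 7.57%). EIF4A1, the helicase of translation initiation, had shares of 55.3%, 47.9% and 43.6% in SCR and 30.7%, 29.9% and 11.1% upon DHX34 knockdown. BZW1, a regulator of start codon choice, was on both lists and had 100%, 12.5% and 100% in SCR. Its shares were 15.2% to 39% upon DHX34 and 15.8% to 31.6% upon UPF1 knockdown, and both knockdowns overlapped SCR. RPL36A, a ribosomal protein whose forms use different start codons, had 45.6% to 55.2% in SCR, 40.8% to 67.7% in the DHX34 and 21.5% to 27.5% upon UPF1 knockdown, with a UPF1 shift by first introns of −0.37 points.

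Of 61 chromatin and transcription regulators, 20 had 53 events. Of the 25 with exact forms of at least 5 TPM, in 10 genes, 13 and 14 did not overlap (all listed events 39.4% and 55.8%, background 5.53% and 7.57%). CHD4, the remodelling ATPase of the NuRD complex, had shares of 43.9%, 34.8% and 46.2% in SCR, 0%, 5.06% and 11.9% upon DHX34 knockdown and 12.5%, 4.18% and 100% upon UPF1 knockdown, whose replicate 3 stood apart. Of 67 signalling and cell cycle regulators, 15 had 32 events. Of the 19 with exact forms of at least 5 TPM, in 8 genes, 12 and 10 did not overlap (39.4% and 55.8% of all listed events, 5.53% and 7.57% of the background). PTPN18, a tyrosine phosphatase, had 62.0% to 77.0% in SCR, 0% to 50.6% in the DHX34 and 57.3% to 58.1% upon UPF1 knockdown. The cell cycle kinase CDK4 had 21.4% to 100% in SCR and 14.3% to 22.2% upon DHX34 knockdown, which overlap.

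Few genes of the remaining lists had an event. Of 25 NMD factors it was DDX6 alone, a helicase of mRNA decapping, whose upstream form was at or below 0.102 TPM in every library, with shifts of 0.0596 and 0.0836 points by whole first exons and 17.9 and 13.4 by first introns. Of 44 genes of acute myeloid leukaemia and myelodysplasia, CDK6, CUX1, MGA, NPM1 and RBM39 had 1 event each. CUX1, a homeodomain factor lost in myeloid disease, had 0%, 74.4% and 69.2% in SCR, 11.6%, 62.2% and 0% in the DHX34 and 81.1%, 77.0% and 77.2% upon UPF1 knockdown. Its UPF1 shift of 30.6 points turned to −0.76 by first introns. Of 43 erythroid and megakaryocytic genes, HBG2, LDB1 and MAFG had an event, and HBG2 shares were 72.8% to 78.0% in SCR, 60.7% to 72.7% in the DHX34 and 70.8% to 84.1% upon UPF1 knockdown, in forms that made up 0.369% of the gene's TPM.

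The totals of the listed genes were compared as well. Of the 256 listed genes tested with edgeR at an adjusted p of at most 0.005, 54 were called upon DHX34 knockdown (background 10.4% of genes), 14 higher (background 5.54%) and 40 lower (background 4.86%). In the UPF1 knockdown 117 were called (background 25.3%), 37 higher (background 12.4%) and 80 lower (background 12.9%), and between the knockdowns 68 (background 17.4%), 41 higher with UPF1 knockdown (background 9.89%) and 27 lower (background 7.47%). The listed genes had median absolute log2 fold changes of 0.12, 0.15 and 0.11 in these comparisons, and all tested genes 0.17, 0.21 and 0.19. Of the 88 genes with a non-overlapping event in the DHX34 comparison, 72 were not called as genes, and of 118 in the UPF1 comparison 61 were not. As whole lists, ribosomal proteins and translation factors were called lower in 74 of 127 genes upon DHX34 and 104 of 127 upon UPF1 knockdown, splicing factors and hnRNPs in 11 and 36 of 94, and NMD factors were called higher in 2 and 11 of 25 and lower in 3 and 4.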

How the data were processed

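Per the labels and the methods, total RNA of 9 K562 libraries was poly(A) enriched, and the authors quantified it with salmon against Ensembl 93 cDNA (GRCh38), with GC bias correction. The deposited tables give TPM and expected counts (estimated counts that need not be whole) for 203027 transcripts. The deposited splicing tables, made with SUPPA2, supplied event identifiers and types only. Their columns of PSI differences, p-values and TPM, and the gene tables of the authors' comparisons, were not used.

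Transcripts were joined to GENCODE 44 (97.9% matched), a later annotation, so a form may hold other transcripts than in the study. Genome sequence was hg38. All annotated pairs of non-overlapping first exons with a common acceptor and a mean of at least 1 TPM were fitted with limma 3.58.1 (lmFit, eBayes with trend) on log2((upstream TPM + 0.5)/(downstream TPM + 0.5)), using the 6 libraries of the groups compared. Benjamini-Hochberg adjustment covered all events. Events with an undefined share in a library were not called. Gene sums of expected counts were rounded and tested with edgeR 4.0.16 (TMM, filterByExpr with a minimum count of 10, quasi-likelihood), with DESeq2 1.42.0 as an alternative. R was 4.3.3. Fits were tested on simulated data. Replicates are biological, and the main fits did not pair libraries by replicate number.

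Named events had exact forms and a mean of at least 5 TPM, 1 event per gene: the 8 largest shifts of each list and the 5 largest differences between knockdowns among non-overlapping groups, the 5 largest SDs in SCR, the gene with most events, and up to 4 per gene list. The members, lists and tests were chosen with earlier results of these data known. Expected counts give no counting interval for a share, because they are themselves estimates. Some items are not reported here.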

Additional observations from a re-analysis of the deposited data

How the results depend on the processing

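Counts of all annotated events called by limma depended on the settings, so they serve as background only. The 23 events for DHX34 became 87 with a pseudocount of 2 TPM, 7 by first introns, 45 with adjusted p alone and 15 on the share itself. The 208 for UPF1 became 68 and 561 with pseudocounts of 0.1 and 2 TPM, 50 by first introns, 584 with adjusted p alone and 54 on the share itself. The 138 between the knockdowns became 60, 370, 48, 336 and 59 in the same order. Leaving out 1 library at a time, which gives fewer samples, gave 9 to 48, 19 to 88 and 30 to 93 events. For DHX34 the libraries that moved the count by over 1.5 times were SCR replicate 2 (48), SCR replicate 3 (12) and DHX34 replicate 3 (9), for UPF1 all 6, and between the knockdowns all but DHX34 replicate 2. Genes called for DHX34 went from 1768 to 3015 with DESeq2, 3396 without a filter, 4403 at an adjusted p of 0.05 and 781 to 1785 without 1 library. For UPF1 and between the knockdowns 4345 and 3026 genes became 6917 and 5691 at an adjusted p of 0.05, and the latter ranged from 1915 to 3865 without 1 library. Of these, each UPF1 library moved the count between the knockdowns by over 1.5 times, and every library but DHX34 replicate 3 that for DHX34. The cause was not tested. A replicate block left 3, 0 and 0 events called by limma (at an unadjusted p under 0.05, 4801 for UPF1 and 3650 between the knockdowns) and 1007 genes for DHX34. The groups share replicate numbers by label, and whether these pair the libraries is not known. Correlations of same-numbered libraries ranged from −0.0081 to 0.0453 for the event ratios and from −0.2711 to 0.1583 for gene levels. Those of differently numbered libraries ranged from −0.0344 to 0.0321 and from −0.146 to 0.2284. With 3 libraries per group these values cannot settle the question.

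Non-overlapping listed events for UPF1 numbered 178, and 103 by first introns. Of 33 shifts of named events, 13 moved by less than the replicate SD by first introns, 17 moved by more and 3 reversed: PRAME (2.43 points, DHX34 against SCR), CUX1 (−0.76, UPF1 against SCR) and HNRNPH1 (0.29, between the knockdowns). With expected counts in place of TPM, 5 of 33 moved by more than the SD and none reversed. First-intron values for all events with such forms were added after seeing the data. Depth limits the least covered events most, as given with the spread among replicates.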
